A study of Homo sapiens with 4 samples.

Results

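The 10 genes described here encode the cyclins that order the human cell cycle, CCND1, CCND2, CCND3, CCNE1, CCNE2, CCNA2, CCNB1 and CCNB2, and the kinases CDK1 and CDK2 that most of them activate. They were found by gene symbol in the annotation of the array platform, each had 1 feature on the array, and all 10 were measured, out of 17687 distinct symbols. The RNA came from HeyA8-MDR, a multidrug-resistant derivative of the human ovarian carcinoma line HeyA8. The medium of this line held 15% serum, gentamicin at 0.1% and paclitaxel, a drug that stabilises microtubules and arrests sensitive cells in mitosis, at 300 ng/ml. The comparison had 2 arrays of cells given an inhibitor of miR-204-5p and 2 arrays of cells given a control microRNA inhibitor, and it asked which transcripts differ once that microRNA is blocked. Both groups are the same line in the same drug-containing medium, and neither the dose of inhibitor nor the time of collection was stated. Groups were read from the array titles and the study's design, because the note on treatment is the same for every array.

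Cyclins are regulatory subunits that rise and fall through the cell cycle and switch on cyclin-dependent kinases. D cyclins join the kinases CDK4 and CDK6 in G1 and start the inactivation of the retinoblastoma protein, E cyclins with CDK2 bring cells into S phase, cyclin A2 serves S phase and G2, and B cyclins with CDK1 drive entry into mitosis. Transcripts of cyclin E, cyclin A2, the B cyclins and CDK1 are themselves periodic: E2F factors control the early ones, and the DREAM and B-MYB-FOXM1 complexes control the late ones through a promoter element named CHR and nearby CCAAT boxes bound by NF-Y.

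The blocked microRNA is shown for its seed, bases 2 to 8, which is in capitals and pairs with target transcripts (RefSeq, GRCh38.p14, chr9:70810031-70810052, minus strand).
hsa-miR-204-5p: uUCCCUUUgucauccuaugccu

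Promoter windows are shown for 5 members, since 4 of them (CCNA2, CCNB1, CCNB2 and CDK1) had lower values in the inhibitor arrays, while CCNE1 stayed close to the controls. They were thus picked by their values, and the windows of CCND3, which also stayed close, are not printed. Each window runs from 250 bases before to 50 bases after the annotated gene start (RefSeq, GRCh38.p14) and is written 5′ to 3′ on the gene's own strand. Capitals mark matches, on either strand, to the CHR sequence TTTGAA, its variant TTTAAA, the CCAAT box, or the E2F motif TTTNGCGC, and 0 of the matches overlapped another.
CCNA2 (chr4:121823834-121824133, minus strand): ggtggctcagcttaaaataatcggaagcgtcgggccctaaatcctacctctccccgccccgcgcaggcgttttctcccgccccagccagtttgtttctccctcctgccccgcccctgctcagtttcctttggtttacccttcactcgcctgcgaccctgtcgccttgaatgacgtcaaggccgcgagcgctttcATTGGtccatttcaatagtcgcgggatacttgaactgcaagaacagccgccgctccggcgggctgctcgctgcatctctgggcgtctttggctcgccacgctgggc
CCNB1 (chr5:69166900-69167199, plus strand): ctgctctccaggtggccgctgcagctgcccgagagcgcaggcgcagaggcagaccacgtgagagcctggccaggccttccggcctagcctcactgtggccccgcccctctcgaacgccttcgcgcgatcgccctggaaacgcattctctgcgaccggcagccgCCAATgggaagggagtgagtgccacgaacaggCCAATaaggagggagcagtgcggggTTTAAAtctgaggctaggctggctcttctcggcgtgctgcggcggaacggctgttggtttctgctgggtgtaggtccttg
CCNB2 (chr15:59104896-59105195, plus strand): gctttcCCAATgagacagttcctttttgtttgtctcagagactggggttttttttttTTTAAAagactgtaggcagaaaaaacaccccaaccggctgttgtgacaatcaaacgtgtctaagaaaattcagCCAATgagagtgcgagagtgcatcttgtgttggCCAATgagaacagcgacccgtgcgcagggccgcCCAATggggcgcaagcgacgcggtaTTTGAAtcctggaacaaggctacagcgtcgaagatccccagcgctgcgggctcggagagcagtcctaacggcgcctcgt
CDK1 (chr10:60778228-60778527, plus strand): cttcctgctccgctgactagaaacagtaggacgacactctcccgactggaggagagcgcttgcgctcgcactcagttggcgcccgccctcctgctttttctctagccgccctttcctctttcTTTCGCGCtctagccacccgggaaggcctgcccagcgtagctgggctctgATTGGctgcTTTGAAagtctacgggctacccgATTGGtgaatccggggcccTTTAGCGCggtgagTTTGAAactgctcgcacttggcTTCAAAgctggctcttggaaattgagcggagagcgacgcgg
CCNE1 (chr19:29811741-29812040, plus strand): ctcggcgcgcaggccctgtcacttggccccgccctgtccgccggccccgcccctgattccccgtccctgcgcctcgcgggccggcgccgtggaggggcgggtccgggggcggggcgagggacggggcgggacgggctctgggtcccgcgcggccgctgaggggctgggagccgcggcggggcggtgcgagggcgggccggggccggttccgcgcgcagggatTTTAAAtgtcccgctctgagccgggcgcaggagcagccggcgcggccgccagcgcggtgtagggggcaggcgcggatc

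All values below are log2 expression values made by the submitters with RMA, a method that corrects background, equalises arrays and summarises the probes of a feature, so a difference of 1 is 2-fold. Array medians were 5.59 and 5.61 in the inhibitor arrays and 5.65 and 5.68 in the control arrays, and the standard deviations over features were 2.08 and 2.13 with the inhibitor and 2.20 and 2.21 in the controls. The narrower inhibitor arrays had lower values among bright features in general: the median difference, inhibitor minus control, was 0.06 for features between 3 and 4 log2 units, -0.13 between 6 and 7, and -0.23 between 9 and 10. All 10 members lay above 75% of features, between mean levels of 7.28 and 10.48, where the median difference of the 4964 features was -0.21 against -0.07 over all 21448. Of 9 ovarian carcinoma and epithelial markers, KRT7, KRT8 and KRT18 (10.30 to 11.45 over the 4 arrays) and PAX8 (8.31 to 8.51) were bright. WT1 (6.11 to 6.81), KRT19 (4.96 to 5.62) and MUC16 (4.35 to 4.86) were less bright, and EPCAM (2.93 to 3.87) and CDH1 (2.72 to 3.50) were dim. The 5 mesenchymal markers VIM, CDH2, FN1, ZEB1 and AXL were all bright, between 8.95 and 12. Of 5 measured leukocyte markers, PTPRC was dim (2.77 to 3.03), ITGAM, CD3E and CD14 lay between 4.11 and 5.60, and CD68 was bright (8.30 to 8.55). Among 5 endothelial markers, 2 were lower and 2 were higher without overlap, against 33.8% and 16.5% of all features, and CDH5 differed most, at 7.01 and 7.03 with the inhibitor against 8.13 and 8.06 in the controls (adjusted p = 0.10 in limma); its part in the cyclin values was not tested. Nothing in the labels says that the arrays of a group came from separate cultures, so the p-values reflect the spread between arrays, and that spread may be technical.

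Transcripts of cyclin A2, the B cyclins, cyclin E2, both kinases and, by less, cyclins D1 and D2 had lower values in the miR-204-5p inhibitor arrays, while cyclin E1 and cyclin D3 lay within or next to the control values. The mean of all 10 members was below that of the controls, as it was for 59.2% of all features, with a median log2 difference of -0.45. In 8 of the 10 the values of the groups did not overlap and both inhibitor arrays were lower, against 33.8% of all features and 61.0% of features at the members' levels. The same 8 were lower at an unadjusted p under 0.05 in limma's moderated test, against 12.8% of all features and 23.5% at those levels. Of these, CCND1 stood at the threshold, with a limma p that rounds to 0.05. Adjusted over all features by the Benjamini-Hochberg method, 0 of the 10 passed a threshold of 0.05 in limma, with adjusted p between 0.15 and 0.92; over all features 11 passed, or 0.0513%, and 0 of these 11 were lower. Without control array 1 the count at an unadjusted p was 3 and without control array 2 it was 1, in fits with fewer degrees of freedom, and 0 features then passed the adjusted threshold, as without either inhibitor array. With 2 arrays a group, an exact permutation test cannot give a two-sided p below 0.333 for any single gene. In RNA from whole cultures, fewer cycling cells and less of a transcript per cell cannot be told apart.

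**Figure D1:**
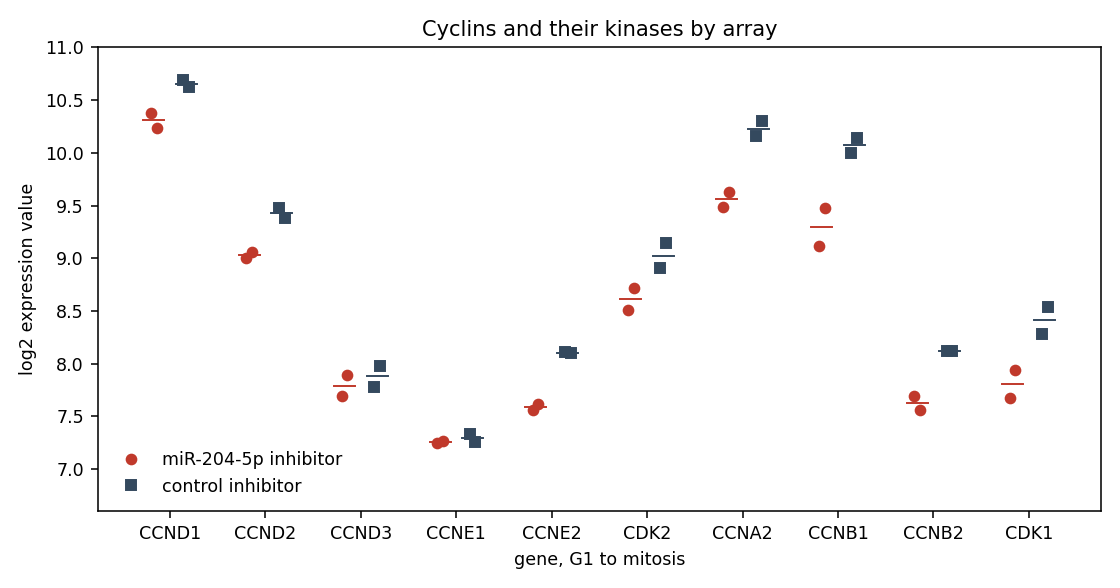
Log2 expression value (vertical axis) of each cyclin and kinase gene (horizontal axis, from G1 to mitosis) on each array, with miR-204-5p inhibitor arrays as circles, control inhibitor arrays as squares and group means as bars. The 2 inhibitor arrays lie below the 2 control arrays for 8 genes, and the groups overlap for CCND3 and CCNE1.

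CCNB1, CCNA2 and CDK1, which act from S phase to mitosis, stood furthest from the controls. CCNB1, cyclin B1, the main partner of CDK1 at mitotic entry, had values of 9.12 and 9.48 in inhibitor arrays, against 10 and 10.14 in control arrays. Both inhibitor arrays were low, but they differed from each other by 0.36, the widest gap within a group among the members. The log2 difference was -0.77 (SE 0.174, 95% interval -1.183 to -0.357), which is 41.4% lower, with an adjusted p of 0.16 in limma. CCNB2, cyclin B2, which is found mostly at the Golgi, had 7.69 and 7.56 with the inhibitor and 8.12 and 8.12 in the controls. Here the spread within groups was small and the arrays of the groups were 0.43 apart at their closest. Its difference of -0.50 (SE 0.143, adjusted p = 0.19) was 29.0% lower.

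CDK1, the kinase without which cells do not enter mitosis, had 7.67 and 7.94 in inhibitor arrays and 8.28 and 8.54 in control arrays. The groups were separate, although the higher inhibitor array came within 0.34 of the lower control. The difference was -0.61 (SE 0.172, 95% interval -1.014 to -0.196, adjusted p = 0.18), or 34.3% lower. CCNA2, cyclin A2, which pairs with CDK2 in S phase and with CDK1 later, had 9.49 and 9.63 with the inhibitor, against 10.16 and 10.30 in the controls. Arrays lay 0.14 apart within each group and the groups 0.53 apart at their closest. CCNA2 had the lowest adjusted p of the members, at 0.15 in limma, with a difference of -0.67 (SE 0.149, 95% interval -1.024 to -0.316), or 37.1% lower.

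The promoter windows of these late genes differed in their matches to the spellings searched. CCNB2 held a TTTGAA 29 bases upstream of the gene start, a TTTAAA 193 bases upstream and 4 CCAAT boxes. The boxes began 54, 87, 120 and 244 bases upstream. CDK1 has 2 overlapping windows for different annotated starts, and the printed one held 3 TTTGAA, 2 CCAAT boxes at 46 and 78 bases upstream and 2 E2F motifs. The window not printed held 1 TTTGAA, 1 TTTAAA, 1 CCAAT box and 1 E2F motif, and that E2F motif is the same site as 1 of the 2 in the printed window. In CCNB1 there were CCAAT boxes at 55 and 87 bases upstream and a TTTAAA at 30, and in CCNA2 a single CCAAT box at 56. Among 35116 promoter windows of the same length, 15.2% held TTTGAA, 12.2% TTTAAA, 34.6% at least 1 CCAAT box and 10.8% at least 2, and 1.79% the E2F motif. CCNE1 held a TTTAAA 28 bases upstream and 0 matches to the other spellings searched. The 3 windows of CCND3 held 2 CCAAT boxes in all, at 64 bases upstream in window 1 and 136 in window 2. A match is only a run of letters and does not show that a factor binds there. Other spellings of the CHR and of E2F sites were not searched, so a window without a match, as for CHR in CCNA2 or E2F in CCNE1, may still hold such an element. RefSeq windows were matched for 6 of the 10 members, and CCND1, CCND2, CCNE2 and CDK2 were not matched.

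**Figure D2:**
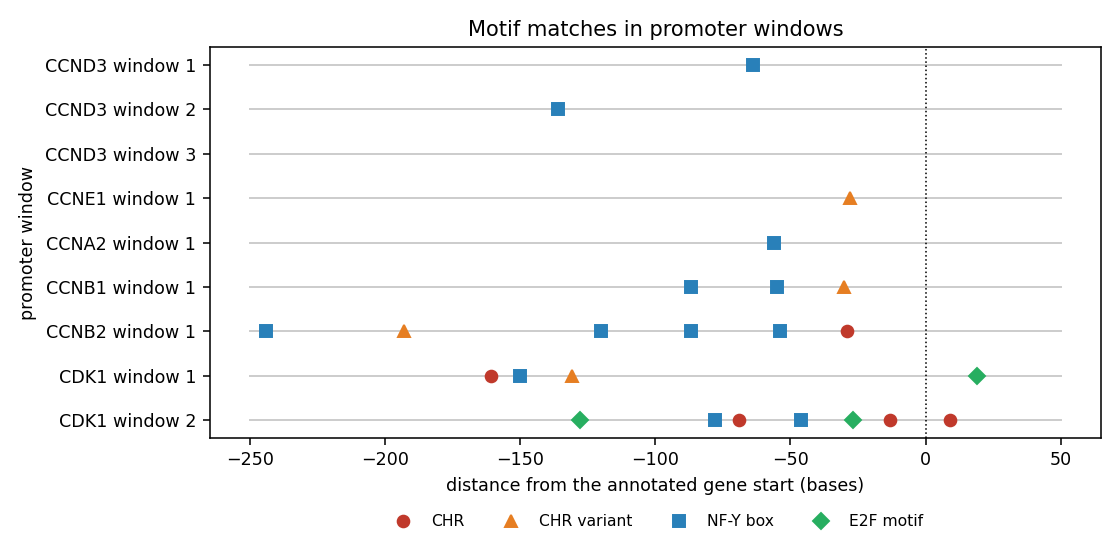
Positions of motif matches in the promoter windows of 6 members, with distance from the annotated gene start in bases on the horizontal axis and 1 window per row. Circles mark CHR matches, triangles the CHR variant, squares the NF-Y box and diamonds the E2F motif. Matches to the NF-Y box lie 46 to 87 bases upstream in CCNA2, CCNB1, CCNB2, CCND3 window 1 and CDK1 window 2. Others lie at 120 and 244 bases in CCNB2, 136 in CCND3 window 2 and 150 in CDK1 window 1.

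The genes of the G1 to S transition were split. CCNE2, cyclin E2, had 7.56 and 7.62 in inhibitor arrays and 8.11 and 8.10 in control arrays. Its groups were 0.48 apart at their closest and hardly varied within, with a difference of -0.52 (SE 0.139, adjusted p = 0.18), or 30.0% lower. CCNE1, cyclin E1, which binds the same kinase and is often amplified in ovarian carcinoma, had 7.25 and 7.27 with the inhibitor, against 7.33 and 7.26 in the controls. The groups overlapped and the difference of -0.04 had a 95% interval of -0.368 to 0.298 (adjusted p = 0.92), which still holds the difference of CCND1 given below. CDK2, the kinase of both E cyclins, had 8.51 and 8.72 in inhibitor arrays and 8.91 and 9.14 in control arrays. Its groups did not overlap, with 0.19 between the nearest arrays, and the difference was -0.41 (SE 0.162, adjusted p = 0.26).

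The D cyclins, which respond to growth factors more than to cell cycle position, had smaller differences than CCNB1 and CCNA2. CCND1, cyclin D1, had 10.38 and 10.24 in inhibitor arrays and 10.69 and 10.62 in control arrays, and CCND2, cyclin D2, had 9.0 and 9.06 with the inhibitor and 9.48 and 9.38 in the controls. Neither gene's groups overlapped. The difference was -0.35 for CCND1 (SE 0.145, 95% interval -0.69 to 0, adjusted p = 0.28) and -0.40 for CCND2 (SE 0.142, adjusted p = 0.23). CCND3, cyclin D3, had 7.69 and 7.89 with the inhibitor, against 7.78 and 7.98 in the controls, and here the groups overlapped. Its difference of -0.09 had a 95% interval of -0.467 to 0.287 (adjusted p = 0.80). The kinases of the D cyclins are named here after their values were seen. CDK4 had 9.82 and 9.80 in inhibitor arrays and 10.04 and 10.18 in control arrays, and CDK6 had 9.01 and 9.15 with the inhibitor and 8.95 and 9.15 in the controls. CDK4 differed by -0.30 (SE 0.144, adjusted p = 0.33 in limma) and CDK6 by 0.03 (SE 0.154, adjusted p = 0.94). After quantile normalization these differences were -0.06 and 0.24.

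Close relatives within a family can be compared inside each array, which removes any shift common to a whole array but not one that depends on brightness. The gap between 2 features has no meaning by itself, but its change measures how unequal the 2 differences were. The SE of a change came from the 2 arrays of each group alone, without limma's moderation. It is itself imprecise and cannot be set against the SE of a single gene. The CCNE2 minus CCNE1 gap was 0.31 and 0.35 log2 units in inhibitor arrays and 0.78 and 0.84 in control arrays, a change of -0.48 (SE 0.0361). For CDK1 minus CDK2 it was -0.84 and -0.78 with the inhibitor and -0.63 and -0.60 in the controls, a change of -0.20 (SE 0.0335). CCND2 minus CCND3 changed by -0.31 (SE 0.166). In these 3 of the 6 family pairs compared the groups did not overlap. Each had an exact permutation p of 0.333 (two-sided), the smallest that 2 against 2 arrays can give. Of single features, 33.8% were lower and 16.5% higher without overlap. The share over pairs of features was not counted, so the 3 pairs do not stand out from a known background. The gaps of CCND1 against CCND2 (change 0.06, SE 0.101), CCND1 against CCND3 (-0.26, SE 0.217) and CCNB1 against CCNB2 (-0.28, SE 0.255) overlapped between groups.

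**Figure D3:**
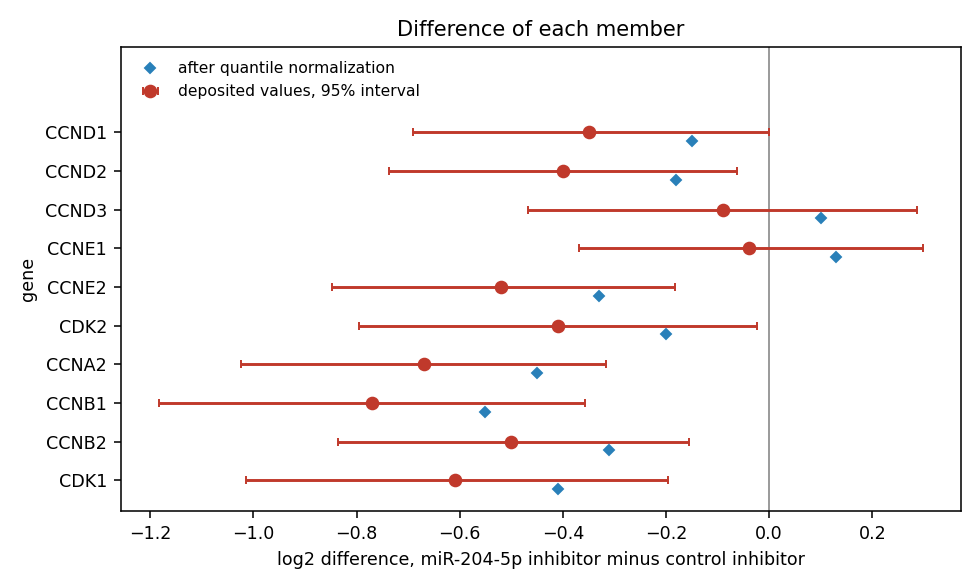
Log2 difference, miR-204-5p inhibitor minus control inhibitor (horizontal axis), of each gene (vertical axis, G1 at the top), with circles and bars for the deposited values and their 95% intervals from limma, and diamonds for the difference after another quantile normalization. CCNB1, CCNA2 and CDK1 lie furthest left with either scaling, and CCND3 and CCNE1 move to the right of 0 after quantile normalization.

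How far below the controls these genes lay depended on the scaling of the arrays. After quantile normalization of the deposited values, which makes the distributions of all arrays equal, the median difference of the members was -0.26 instead of -0.45, 8 of 10 were still lower, and 7 were lower without overlap, against 23.9% of all features. At an unadjusted p under 0.05, 4 members were then lower, against 7.10% of all features. CCNB1 then differed by -0.55, CCNA2 by -0.45, CDK1 by -0.41, CCNE2 by -0.33 and CCNB2 by -0.31. CDK2 (-0.20), CCND2 (-0.18) and CCND1 (-0.15) were nearer to the controls, and CCNE1 (0.13) and CCND3 (0.10) lay above them. The test also depended on how the spread was modelled. With limma's spread allowed to follow brightness, 7 members were lower at an adjusted p under 0.05, against 6.09% of all features: CCNA2 (adjusted p = 0.0027), CCNB1 (0.0036), CDK1 (0.018), CCNE2 (0.022), CCNB2 (0.026), CCND2 (0.029) and CCND1 (0.034). None was higher under that model, against 1.02% of all features. With that model on quantile-normalized values, CCNA2 (adjusted p = 0.012) and CCNB1 (0.014) were the 2 members that passed, against 1.19% of all features lower. The shares in this paragraph cover features of every brightness. Shares at the members' levels, which were higher for the deposited values, were not counted under these settings.

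**Figure D4:**
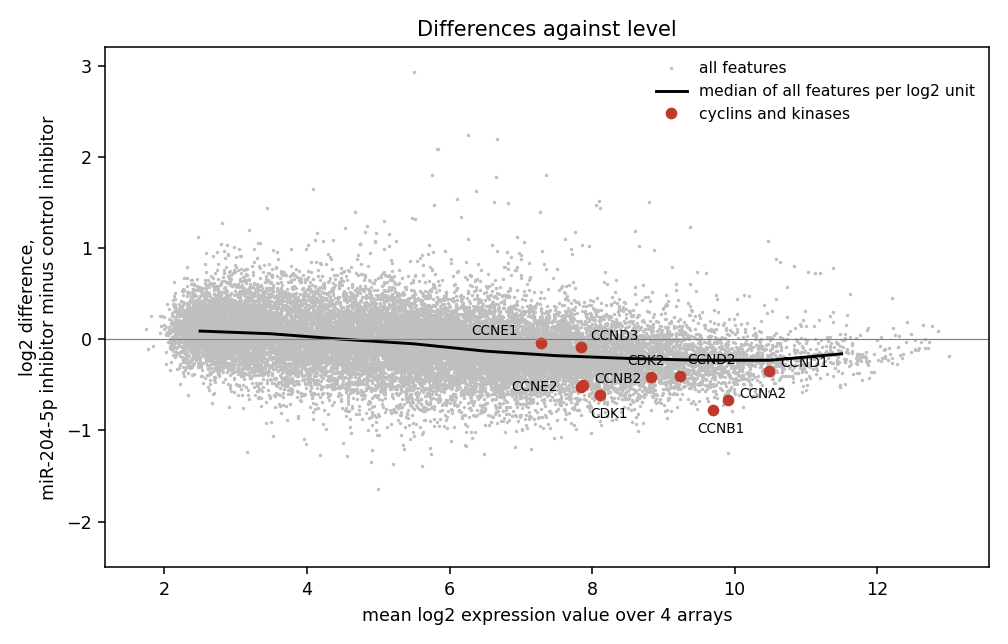
Log2 difference, miR-204-5p inhibitor minus control inhibitor (vertical axis), against mean log2 expression value over the 4 arrays (horizontal axis) for all 21448 features in grey and the 10 cyclin and kinase genes as labelled points. The line joins the median difference of all features in each log2 unit and reaches -0.23 between 9 and 10; CCNB1 and CCNA2 lie well below it, and CCNE1 and CCND3 lie above it.

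Genes that act on cyclins and their kinases were described by lists chosen with earlier results of these data known. In each of the 7 lists 0 genes passed an adjusted p of 0.05 in limma. Their counts at an unadjusted p under 0.05 stand against 12.8% lower and 5.11% higher over all features, and 23.5% lower at the members' levels. Among proliferation markers all 12 were lower without overlap, against 33.8% of all features and 61.0% at those levels, and 10 were lower at an unadjusted p under 0.05. Their median was -0.52, or -0.32 after quantile normalization, with examples in the checkpoint kinase BUB1 (-0.82, SE 0.197), thymidine kinase TK1 (-0.70, SE 0.157), the ribonucleotide reductase subunit RRM2 (-0.59, SE 0.139) and the replication clamp PCNA (-0.57, SE 0.147). Of 20 E2F, pocket protein and DREAM factors, 9 were lower and 1 higher at an unadjusted p under 0.05 (median -0.34, or -0.17 after quantile normalization). The activator E2F1 (-0.94, SE 0.175), E2F3 (-1.0, SE 0.219), the atypical repressor E2F8 (-1.26, SE 0.252) and RBL1, which encodes the pocket protein p107 (-0.51, SE 0.139), were named by the size of their statistic. E2F7, an atypical repressor picked out after its value was seen, was the 1 higher gene, with 9.34 and 9.63 in inhibitor arrays and 8.77 and 8.99 in control arrays.

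Of 11 genes of CDK phosphorylation control and small subunits, all were lower in the mean, against 59.2% of all features, and 5 were lower at an unadjusted p under 0.05, against 12.8%. The median was -0.34, or -0.13 after quantile normalization, when 8 of the 11 were lower. They act in opposite ways on the kinases. The phosphatase CDC25A, which removes the inhibitory phosphates, differed by -0.71 (SE 0.245), and the kinases that add them, WEE1 and PKMYT1, by -0.38 (SE 0.144) and -0.44 (SE 0.148). MASTL, the Greatwall kinase that protects CDK1 substrates from dephosphorylation, had 5.26 and 5.08 with the inhibitor and 5.78 and 6.05 in the controls (-0.75, SE 0.164, adjusted p = 0.15). The small subunits CKS1B (-0.34, SE 0.144) and CKS2 (-0.21, SE 0.163) differed by less, as did CDC25B (-0.16) and CDC25C (-0.19).

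The 7 measured CDK inhibitors had a median difference of 0.00, or 0.14 after quantile normalization, and showed no common direction. CDKN1A, the p53 target p21, had 9.09 and 9.37 in inhibitor arrays and 8.84 and 8.85 in control arrays, and was higher without overlap (0.39, SE 0.158, adjusted p = 0.27). CDKN3, a phosphatase that acts on CDKs and is itself expressed in cycling cells, had 8.23 and 8.38 with the inhibitor and 8.83 and 8.86 in the controls (-0.54, SE 0.145, adjusted p = 0.18). The remaining inhibitors lay between -0.10 and 0.08: p27 (CDKN1B, 0.08), p57 (CDKN1C, 0.05), p19 (CDKN2D, 0.00), p15 (CDKN2B, -0.08) and CDKN2A (-0.10). CDKN2C had no named feature here.

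Of 26 genes of cyclin destruction, 7 were lower and 0 higher at an unadjusted p under 0.05, against 12.8% and 5.11% of all features (median -0.24, or -0.09 after quantile normalization). FBXO5, the inhibitor of the anaphase-promoting complex also called EMI1, had 6.62 and 6.58 in inhibitor arrays and 7.42 and 7.65 in control arrays, which is -0.94 (SE 0.152, adjusted p = 0.12). SKP2, which targets p27 (-0.60, SE 0.139), CDC20, the mitotic activator of the anaphase-promoting complex (-0.57, SE 0.14), and FBXO4 (-0.66, SE 0.189) followed. Of 12 other cell cycle cyclins and kinases, 3 were lower and 1 higher at an unadjusted p under 0.05 (median -0.26, or -0.11 after quantile normalization): CDK14 (-0.65, SE 0.142), cyclin F (CCNF, -0.52, SE 0.145) and CCNJ (-0.41, SE 0.164) were lower, and CCNG2, a cyclin linked to cell cycle exit, was higher (0.52, SE 0.169, adjusted p = 0.21). CDK-activating and transcriptional cyclins and kinases do not follow the cell cycle, and of these 17 genes 2 were lower and 0 higher at an unadjusted p under 0.05, a share close to the 12.8% over all features (median -0.15, or 0.04 after quantile normalization). The 2 were CDK9 (-0.40, SE 0.151) and CDK19 (-0.40, SE 0.157), and CCNC differed by -0.46 (SE 0.208) and CCNK by -0.30 (SE 0.146).

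**Figure D5:**
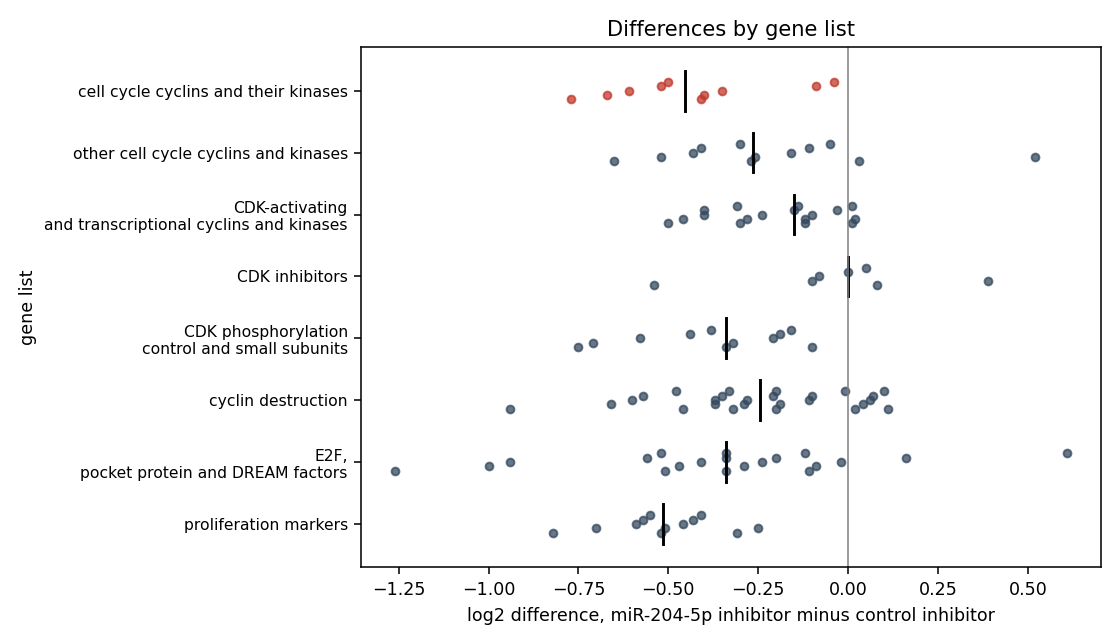
Log2 difference, miR-204-5p inhibitor minus control inhibitor (horizontal axis), of each measured gene (points) in the cyclin and kinase set and 7 related gene lists (rows), with vertical bars at the medians. Medians of the deposited values run from -0.52 for proliferation markers and -0.45 for the cyclins and their kinases to -0.15 for the CDK-activating and transcriptional list and 0.00 for the CDK inhibitors.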

How the data were processed

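Total RNA was measured on the Affymetrix Human Clariom S platform, a 1-colour array with several short probes per feature. The deposited log2 values were made by the authors with RMA, for which the submitters' processing notes name Transcriptome Analysis Console 4.0; its parameters and the genome build are not given in the sources used here. Signal over background was not analysed here, and the number of arrays limits the precision. The table held 21448 features, of which 17709 had 1 symbol in the platform annotation, 0 had several and 3739 had none. The brightest feature by mean stood for a gene.

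Groups were compared over all features with limma 3.58.1 in R 4.3.3 (lmFit, eBayes, 2 residual and 4.78 prior degrees of freedom), without a replicate block or filter, with Benjamini-Hochberg adjustment and a threshold of 0.05. The procedure was run on simulated data with planted shifts larger than the difference of any member, and with noise that did not follow brightness. That run therefore says nothing about differences of the members' size. Members and lists were chosen with earlier results of these data known. All members are named, with up to 4 genes per related list by the size of the moderated statistic, and the inhibitor and phosphorylation lists may be named in full. Other settings were an intensity trend, a robust prior, a replicate block, other scalings, filters on dim features, leaving out each array and an ordinary test.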

Additional observations from a re-analysis of the deposited data

How the results depend on the processing

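Of the 10 genes, 8 kept a difference below 0 under all 14 alternatives, and CCND3 and CCNE1 did not. CCND3 was 0.10 after quantile normalization, with or without an intensity trend, 0.10 after cyclic loess, and -0.19 to 0.01 with 1 array left out, being 0.01 without control array 2 and without inhibitor array 1. CCNE1 was 0.13 after quantile normalization, with or without the trend, 0.14 after cyclic loess and 0.03 with equal array medians. The cause was not tested. The 11 features called became 1525 with an intensity trend, 559 with quantile normalization and trend, 38 without features below the 25th percentile, 1011 without those below the median, and 0 after quantile normalization, with an ordinary test, and without any 1 array. Members called numbered 7 with the trend, against 6.09% of all features lower and 1.02% higher. With quantile normalization and trend they numbered 2, against 1.19% of all features lower. Without features below the median they numbered 5, where 1011 of the 10739 features kept were called in either direction. Members lower at an unadjusted p under 0.05 numbered 8 in all arrays, against 12.8% of all features, and 4 after quantile normalization, against 7.10%. They also numbered 4 after cyclic loess, and 5 with quantile normalization and trend and with an ordinary test. For settings other than the main fit and quantile normalization, the share of all features at an unadjusted p was not counted. The members' median was -0.26 after quantile normalization, with or without trend, -0.25 after cyclic loess, and -0.50 to -0.44 with 1 array left out. Leaving out an array lowers the degrees of freedom, and the remaining array of its group is taken to vary as the other group does. Same-numbered arrays did not deviate together (correlation 0.01), so the numbers were not taken to pair them; the replicate block left 0 features and 0 members called, and 7 members lower at an unadjusted p under 0.05. Each member had 1 feature, so no other feature could be tried.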
